A study of Drosophila melanogaster with 6 samples.

Results

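The Toll pathway carries a signal from outside the cell to NF-κB transcription factors, and it was followed here through 10 genes in Drosophila S2 cells with and without depletion of NELF. The genes are GNBP3, SPE, spz, Tl, Myd88, tub, pll, cact, dl and Dif, taken by name as the route from recognition protein and ligand to Dorsal and its relative Dif. All 10 were measured, by 13 of the 18952 probe sets on the array, and they make up 10 of the 11983 genes tested. Total RNA of the DGRC S2 line, an embryo-derived line with features of blood cells, was hybridised to 6 Affymetrix Drosophila Genome 2.0 arrays, 2 per group. The untreated group received no dsRNA. In the mock group, cells were given dsRNA to bacterial β-galactosidase. NELF-depleted cells were given dsRNA to NELF-B together with dsRNA to NELF-E, and both treatments lasted 96 hours. NELF (negative elongation factor) is a complex that keeps RNA polymerase II paused near promoters, and the comparison asks which mRNAs differ once it is depleted. Mock cells control for dsRNA itself. All groups are populations of 1 cell line. Separate cultures are not stated for the arrays within a group, so each p-value covers only how much these arrays vary, which may be technical.

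Toll signalling begins outside the cell. Recognition proteins bind microbial wall material and start a cascade of serine proteases, whose last member cuts the cytokine Spätzle into its active form. Active Spätzle binds the receptor Toll, which gathers the adaptors Myd88 and Tube and the kinase Pelle; the inhibitor Cactus is then degraded, and Dorsal or Dif enters the nucleus. The pathway lays out the dorsoventral axis of the embryo, and in the fat body and in blood cells of larvae and adults it serves defence against fungi and many Gram-positive bacteria.

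Values are normalized log2 intensities unless deposited intensities are named, and a difference of 1 on this scale is a 2-fold change. The background level, set from tag control probe sets, was 3.88 on this scale or 13.9 as a deposited intensity. Median deposited intensities ran from 11.7 to 14.2 over the 6 arrays. Both dsRNA targets were lower after treatment, with 26.1% of the mock level left for NELF-B and 19% for Nelf-E. Of 12 blood cell markers 11 were above background in at least 1 group, while NimC1 was below it in all 3. Summed on the linear scale, they gave 9030 and 11300 in untreated, 9220 and 9730 in mock and 10800 and 10900 in NELF-depleted cells. Limma called 2 of the 12 in NELF-depleted against mock cells, both lower, beside 1.35% of all genes called and 1.08% called lower. Both are phagocytosis receptor genes, eater (-0.87, adjusted p = 0.0170) and drpr (-0.87, adjusted p = 0.00301). Of the 12 values against mock, 8 were higher and 4 lower, and none of the higher ones was called. A few bright genes carry the sum, chiefly Pxn, the peroxidasin gene, which read 11.43 and 11.86 in untreated, 11.29 and 11.71 in mock and 12.03 and 12.01 in NELF-depleted cells (0.52 against mock, not called, adjusted p = 0.217). Of 11 measured markers of other cell types (neuron, muscle, fat body, gut, germ line), 4 were above background in any group, and none was called. In such bulk samples, fewer cells of a type and less RNA per cell cannot be told apart.

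In NELF-depleted against mock cells, the mRNAs of the ligand spz and of the recognition protein GNBP3 fell. With spz, 61.8% of the mock level remained (95% interval 53.9% to 71.0%), and with GNBP3 46.2% (33.4% to 64.0%). SPE, Tl and dl had lower values that did not pass the test. The adaptors Myd88 and tub, the kinase pll, the inhibitor cact and the NF-κB factor Dif had values between 0.0017 and 0.31, none past it. The test was limma with an intensity-dependent prior over all 11983 genes, two-sided, with Benjamini-Hochberg adjusted p under 0.05. It called 2 of the 10 members, both lower, against 1.35% of all genes in either direction, 1.08% lower, and 1.99% lower among the 6533 genes with a mean above background, where all 10 members lie. The members' median log2 change was -0.20, beside 0.0122 over all genes. On both NELF-depleted arrays 5 of the 10 members lay below all 4 control arrays, which 11% of all genes did and 13.9% of those above background. No member lay above all 4, as 11.1% of all genes did. The members and the intensity-dependent prior were chosen with earlier results of these data known. These counts beside the shares of all genes are therefore a description, and an excess was not tested. The part of the blood cell markers in the members' values was not tested. Limma with a single prior variance called 0 of the 10 members and 0% of all genes, so that NELF-B and Nelf-E, the dsRNA targets, were not called either. An unadjusted p under 0.05 was reached by 4 members and 9.15% of genes with that prior, and by 5 members and 11% of genes with the intensity-dependent one.

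**Figure D1:**
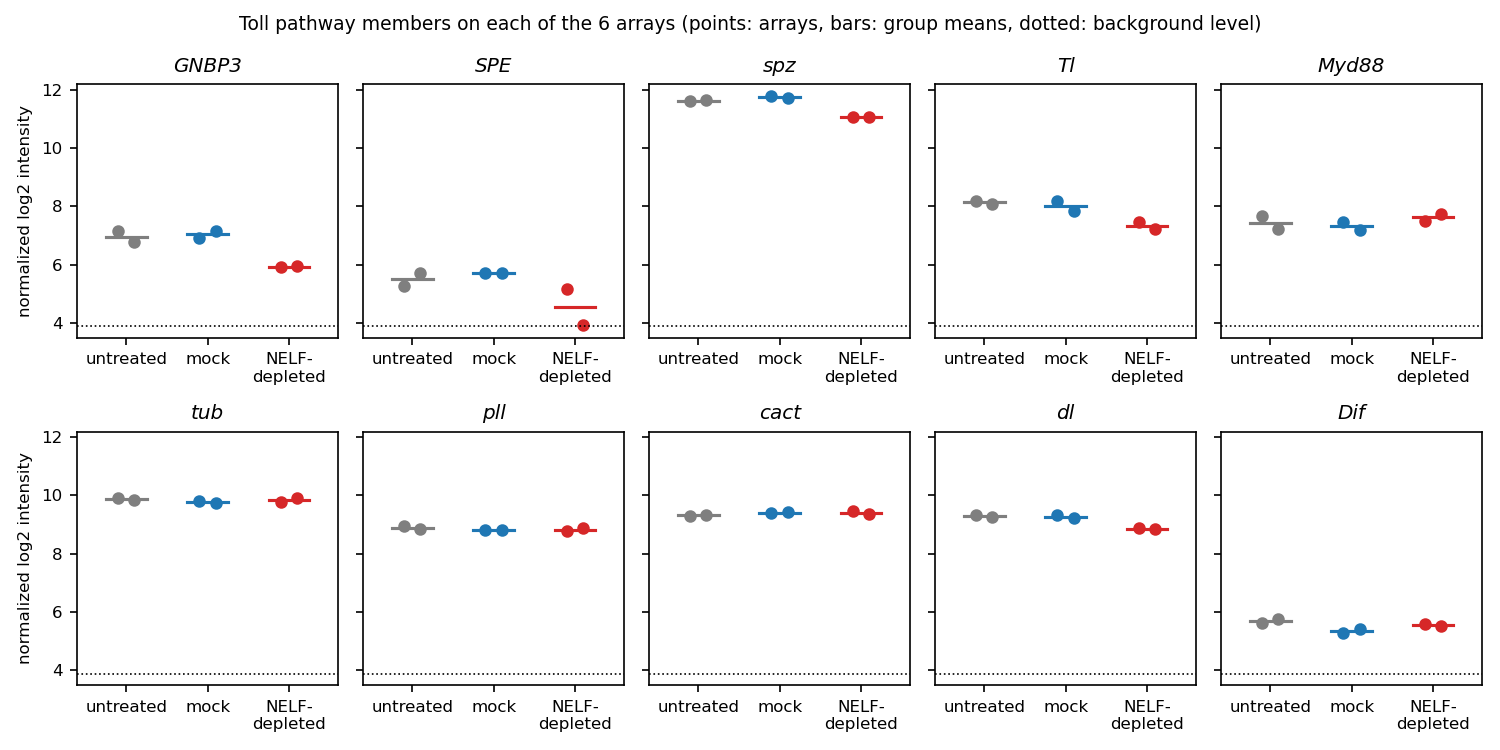
Normalized log2 intensity (vertical axis) of each Toll pathway member in the untreated, mock and NELF-depleted groups. Points are the 2 arrays of a group, bars the group means and the dotted line the background level of 3.88; the NELF-depleted arrays lie below all 4 controls for GNBP3, SPE, spz, Tl and dl and overlap them for the other 5.

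GNBP3 encodes a secreted protein that recognises fungal β-glucans. Its levels were 7.14 and 6.78 in untreated, 6.92 and 7.16 in mock and 5.92 and 5.94 in NELF-depleted cells. The controls overlapped each other and spread over a wider range than the NELF-depleted pair, which lay below them all. As deposited, its intensities were 169 and 134 in untreated, 134 and 113 in mock and 54.6 and 50.3 in NELF-depleted cells. GNBP3 changed by -1.11 (SE 0.211) against mock and by -1.03 (SE 0.211) against untreated cells, and passed the limma test in both comparisons (adjusted p = 0.0320 and 0.0442). The call against mock was lost without any single array, with limma adjusted p-values from 0.0567 without untreated replicate 2 and 0.0626 without untreated replicate 1, through 0.106 without mock replicate 1, 0.162 without NELF-depleted replicate 1 and 0.176 without NELF-depleted replicate 2, to 0.258 without mock replicate 2. The call against untreated cells was lost in the same way, with adjusted p-values from 0.0744 without mock replicate 1 to 0.475 without untreated replicate 1. With 50 intensity units added before taking logs, the change against mock was -0.72, and the call was also lost.

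SPE encodes the Spätzle-processing enzyme, the protease that cuts Spätzle in the immune response. It read 5.28 and 5.71 in untreated, 5.72 and 5.69 in mock and 5.18 and 3.92 in NELF-depleted cells. Both NELF-depleted values were below all controls, but they stood far apart, the second being close to the background level. Deposited intensities were 45.9 and 63.8, then 58.2 and 40.6, then 31.0 and 13.0 in the same order of groups. The fitted change of -1.15 (SE 0.449) did not pass limma's test (adjusted p = 0.365). Its size rested on NELF-depleted replicate 2: without that array it was -0.53, and without NELF-depleted replicate 1 it was -1.78.

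Spätzle is the ligand of Toll, and spz was the brightest of the 10 probe sets standing for the members, though brightness depends on the probes and sets no order among the genes. The levels of spz were 11.60 and 11.65 in untreated, 11.79 and 11.73 in mock and 11.08 and 11.06 in NELF-depleted cells. Arrays within a group differed by far less than the gap between NELF-depleted and control groups. In deposited intensities spz was at 3604 and 3639, then 3863 and 2706, then 2171 and 1758, in the same order. The NELF-depleted arrays were thus below all 4 controls before normalization as well. As deposited, the median log2 change over all genes was itself -0.0674 against mock and -0.372 against untreated cells. The change was -0.69 (SE 0.0896) against mock and -0.56 (SE 0.0896) against untreated cells, both past limma's test (adjusted p = 0.00301 and 0.0111). Leaving out NELF-depleted replicate 2 moved the adjusted p against mock to 0.0609, and the change to -0.68; leaving out any other single array kept the call. Against untreated cells the limma call was lost without untreated replicate 1 (adjusted p = 0.0793) or 2 (0.109) and without NELF-depleted replicate 1 (0.120) or 2 (0.158).

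Over the 6 arrays, the genes above background whose mean-centred profile lay nearest to that of spz were CG42846, ImpL2 and CG5346, at Euclidean distances of 0.112, 0.140 and 0.170 log2 units. These were the nearest of 6532 genes compared, and the distance describes these arrays only. Since nearness to spz picked them, their values against mock are a description: -0.74 for CG42846, -0.60 for ImpL2, which encodes a secreted insulin-binding protein, and -0.77 for CG5346.

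Tl encodes the receptor Toll. Its brighter probe set read 8.19 and 8.09 in untreated, 8.17 and 7.85 in mock and 7.47 and 7.22 in NELF-depleted cells. The NELF-depleted arrays were below all 4 controls, of which mock replicate 2 was the lowest. Deposited intensities of Tl were 353 and 325 in untreated, 321 and 182 in mock and 169 and 122 in NELF-depleted cells, again without overlap, but with mock replicate 2 close to the NELF-depleted arrays. Tl changed by -0.80 (SE 0.153) against untreated cells, past limma's test (adjusted p = 0.0299), whereas its value of -0.67 (SE 0.153) against mock was not past it (adjusted p = 0.0761). Between the controls, Tl had a mock minus untreated value of -0.13 (SE 0.153), not past the test (adjusted p = 1.00). The call against untreated cells was lost without untreated replicate 1 (adjusted p = 0.280) or 2 (0.165) and without NELF-depleted replicate 1 (0.0814) or 2 (0.285). A second Tl probe set was dim, between 4.04 and 5.40 over the 6 arrays, and its untreated arrays alone spanned 5.40 and 4.04. It gave -0.61 (SE 0.562) against mock. Taking the median of both probe sets gave -0.71 against untreated cells and ended the call (adjusted p = 0.447).

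Downstream of Toll, Myd88 and tub encode adaptors and pll a kinase, which assemble through their death domains. Myd88 read 7.65 and 7.23 in untreated, 7.46 and 7.18 in mock and 7.51 and 7.75 in NELF-depleted cells. Its change against mock was 0.31 with a 95% interval from -0.11 to 0.72. The levels of tub were 9.92 and 9.83 in untreated, 9.81 and 9.74 in mock and 9.77 and 9.92 in NELF-depleted cells. For both adaptors the NELF-depleted arrays overlapped the range of the 4 controls, although the Myd88 values of NELF-depleted cells were above those of mock cells. The interval of the tub change ran from -0.15 to 0.28 around 0.067. The kinase gene pll read 8.94 and 8.84, 8.82 and 8.80, and 8.78 and 8.87 in the same order, a change against mock of 0.011 with an interval from -0.21 to 0.24. For tub and pll these intervals do not reach a drop of the size fitted for spz; for Myd88 the interval leaves room for a rise of that size. None of the 3 passed limma's test against mock (adjusted p = 0.627, 0.870 and 0.992), which does not show equal levels, and all 3 turned negative when arrays were scaled on hybridization controls (-0.12, -0.35 and -0.41), a scaling that moved the median of all genes to -0.42.

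**Figure D2:**
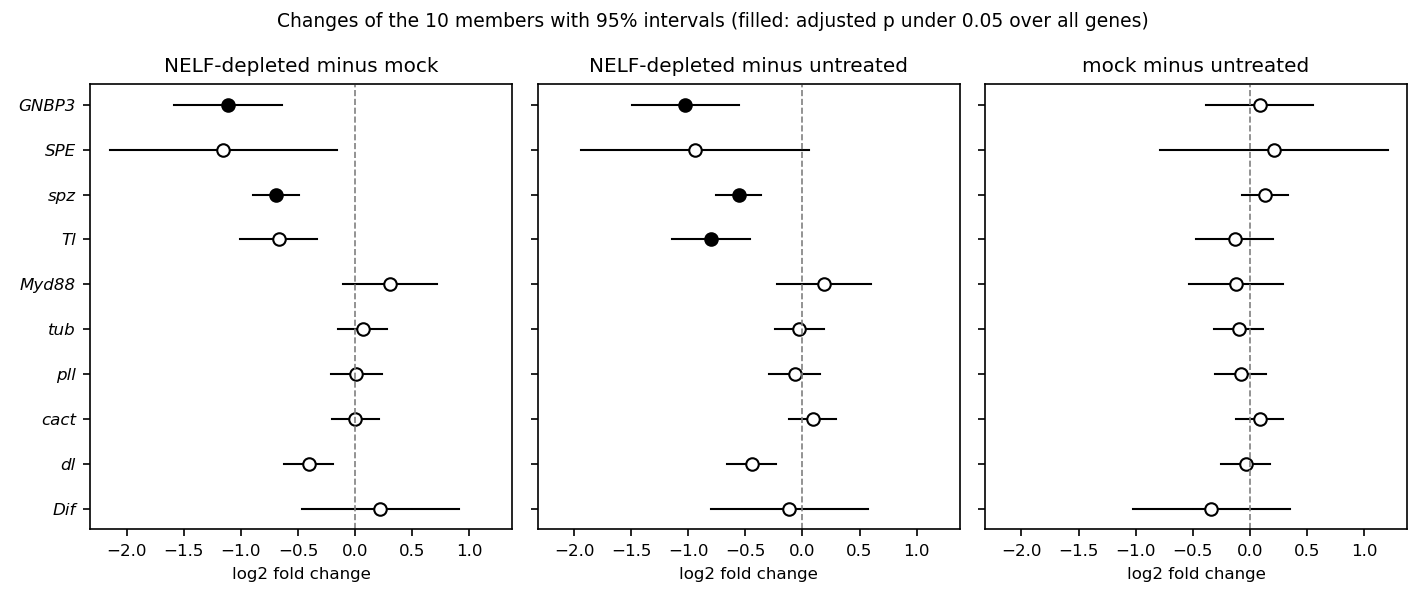
Log2 fold change (horizontal axis) of each member in NELF-depleted minus mock, NELF-depleted minus untreated and mock minus untreated cells. Points are fitted changes, bars 95% intervals and filled points an adjusted p under 0.05; GNBP3 and spz are filled in the first panel, GNBP3, spz and Tl in the second and none in the third.

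Cactus, the product of cact, is the IκB-type inhibitor that keeps Dorsal and Dif in the cytoplasm. The brighter of its probe sets read 9.30 and 9.33 in untreated, 9.40 and 9.41 in mock and 9.46 and 9.36 in NELF-depleted cells. Its change against mock was 0.0017 (SE 0.0931, interval from -0.20 to 0.21, adjusted p = 0.997), and -0.41 under hybridization-control scaling. The dimmer cact probe set did not read alike: 7.52 and 7.70 in untreated, 7.59 and 7.75 in mock, and 7.99 and 8.16 in NELF-depleted cells. There, both NELF-depleted arrays were above all 4 controls, which 11% of all probe sets were. In limma with every probe set as its own feature, the change of this probe set was 0.41 (SE 0.139) against mock and 0.46 (SE 0.139) against untreated cells, neither past the test (adjusted p = 0.290 and 0.238); that fit called 1.25% of 13647 probe sets against mock.

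Dorsal and Dif are NF-κB family transcription factors, Dorsal known for embryonic patterning and Dif for the immune response of adult flies. The brighter dl probe set read 9.33 and 9.26 in untreated, 9.31 and 9.21 in mock and 8.87 and 8.84 in NELF-depleted cells. The NELF-depleted arrays were lower than every control array. Deposited intensities of this probe set were 776 and 729 in untreated, 706 and 470 in mock and 453 and 375 in NELF-depleted cells, where mock replicate 2 and NELF-depleted replicate 1 nearly met. The dimmer dl probe set read 7.48 and 7.80, 7.87 and 7.76, and 7.26 and 7.18 in the same order of groups. There too the NELF-depleted arrays were below all 4 controls, as they were for 10.7% of probe sets. Changes against mock were -0.41 (SE 0.0967) for the brighter and -0.59 (SE 0.153) for the dimmer, neither past limma's test (adjusted p = 0.0889 over genes and 0.128 over probe sets). Against untreated cells the brighter changed by -0.44 (adjusted p = 0.0586), also not past it. Dif, by contrast, read 5.60 and 5.74, 5.26 and 5.41, and 5.59 and 5.52, with both NELF-depleted arrays inside the control range. Its change against mock was 0.22 with an interval from -0.46 to 0.91, wide enough to hold a drop as large as that of dl. Dif and dl lie near each other on the same chromosome arm, with 3 other genes listed between them, and whether their changes differ was not tested.

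**Figure D3:**
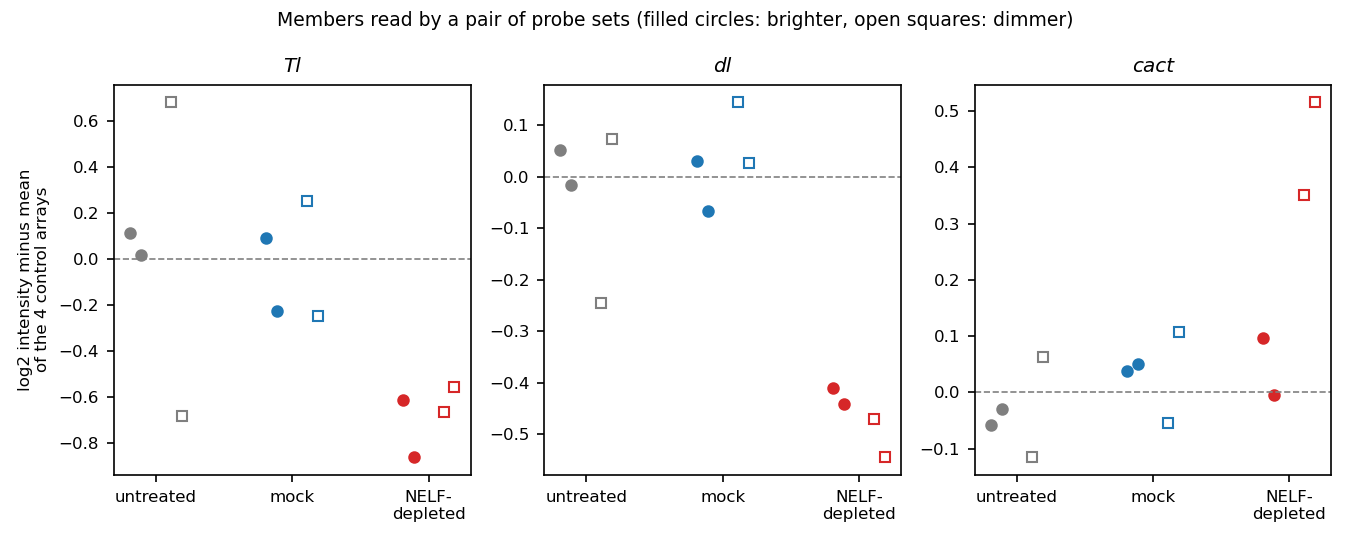
Normalized log2 intensity minus the mean of the 4 control arrays (vertical axis; scales differ between panels) for Tl, dl and cact, each read by a pair of probe sets. Filled circles are the brighter probe set and open squares the dimmer, 1 point per array; both dl probe sets are lower in NELF-depleted cells, while for cact only the dimmer has NELF-depleted arrays above all controls.

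Against untreated cells, 3 of the 10 members were called by limma, all lower: spz, Tl and GNBP3. The background was 1.41% of all genes called and 1.18% called lower. The members' median log2 change was -0.28, with SPE at -0.94 (adjusted p = 0.535) and the 5 members from adaptors to Dif other than dl between -0.12 and 0.19. Set against the mean of both control groups, 4 members were called lower, spz by 0.63 (SE 0.0776), Tl by 0.74 (SE 0.132), dl by 0.43 (SE 0.0837) and GNBP3 by 1.07 (SE 0.183), with limma adjusted p-values of 0.00161, 0.0161, 0.0260 and 0.0129 (background 2.06%, 1.62% lower). All comparisons with NELF-depleted cells share those 2 arrays, and the last shares its controls with the other comparisons, so they are not independent. Against both controls spz lost its call without NELF-depleted replicate 2 (adjusted p = 0.0537). Tl kept its call only without mock replicate 2 (adjusted p = 0.0230; 0.0554 to 0.248 without another array), and GNBP3 only without untreated replicate 2 (0.0271) or mock replicate 1 (0.0338; 0.0576 to 0.114 without another array), all by limma. The dl call was lost in 5 of 6 fits without 1 array, holding only without mock replicate 2 (adjusted p = 0.0486); its adjusted p was 0.0714 and 0.104 without untreated replicate 2 and 1, 0.0778 without mock replicate 1, and 0.195 and 0.285 without NELF-depleted replicate 1 and 2.

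Mock treatment itself moved no member past the test. Mock minus untreated changes ran from -0.34 for Dif (SE 0.309) to 0.21 for SPE (SE 0.449), with a median of -0.0577. Limma called 0 of the 10 members and 0% of all genes, with either prior; 0 members and 408 of 11983 genes (3.4%) had an unadjusted p under 0.05 with the intensity-dependent prior, and 602 genes (5.02%) with the single prior. For spz, the interval of the mock effect was -0.06 to 0.33, and for GNBP3 it was -0.38 to 0.56.

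The rest of the pathway was followed through lists of other known parts. Of 15 measured recognition proteins, proteases and protease regulators upstream of Spätzle, only 4 were above background in any group. Limma called 1 of the 15 against mock, lower, beside 1.35% of all genes called and 1.08% called lower. This was grass, a serine protease gene of the immune branch of the cascade that leads to SPE. Its levels were 9.09 and 9.10 in untreated, 8.86 and 8.98 in mock and 8.18 and 8.36 in NELF-depleted cells, without overlap. Grass fell by 0.65 (SE 0.109, limma adjusted p = 0.0155) against mock and by 0.82 (adjusted p = 0.00347) against untreated cells. The call against mock was lost without mock replicate 1 (0.0705) or 2 (0.149) and without NELF-depleted replicate 1 (0.171) or 2 (0.0594), all limma adjusted p-values; the call against untreated cells was lost without NELF-depleted replicate 1 (0.0541). With 50 intensity units added, the call against mock was lost as well (-0.57, adjusted p = 0.0586). The protease inhibitor gene Spn27A, whose product restrains the embryonic cascade, had a value of -0.046 (adjusted p = 0.944). Of the genes of that embryonic cascade, the Spätzle-cutting protease gene ea and the sulfotransferase gene pip each exceeded background in 1 group, by a small margin (3.89 for ea in NELF-depleted and 3.92 for pip in mock cells). Neither passed limma's test against mock (2.20, adjusted p = 0.336, for ea and -0.51, adjusted p = 0.862, for pip). The ea values were 4.27 and 3.51 in NELF-depleted cells, above all 4 controls, the second being under the background level. The median change of the 15 was 0.304, over genes of which 11 were below background in every group. Both NELF-depleted arrays lay below all 4 controls for 2 of the 15 and above them for 2, beside 11% and 11.1% of all genes. An unadjusted p under 0.05 was reached by 3 with the intensity-dependent prior and by 4 with the single prior, beside 11% and 9.15% of all genes.

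Among 10 measured relatives of the ligand and receptor, 3 were above background, and none was called (0 of 10 with either prior). With the intensity-dependent prior 1 had an unadjusted p under 0.05, where 11% of all genes did. The median of the 10 was -0.0391. Those above background were 18w (-0.40, adjusted p = 0.369) and Tollo (-0.059, adjusted p = 0.964), both Toll-family receptor genes, and spz5, a gene of the Spätzle family (0.35, adjusted p = 0.613). On both NELF-depleted arrays 18w lay below all 4 controls, as 11% of all genes did, and spz5 above them, as 11.1% did.

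All 12 measured intracellular regulators were above background, and none passed limma's test; their changes ran from -0.23 to 0.26 with a median of 0.060. At an unadjusted p under 0.05 there were 2 with the intensity-dependent prior and 0 with the single prior, beside 11% and 9.15% of all genes. For 3 of the 12 both NELF-depleted arrays lay above all 4 controls, and for 1 below them, beside 11.1% and 11% of all genes. The smallest p-values belonged to aPKC, an atypical protein kinase C gene (0.26, adjusted p = 0.341), Gprk2, a receptor kinase gene that acts in Toll signalling (-0.23, adjusted p = 0.416), Pli, which encodes the Pelle-interacting protein Pellino (0.20, adjusted p = 0.576), and Hrs, an endosomal sorting gene (-0.15, adjusted p = 0.594). Under hybridization-control scaling 3 of the 12 were called, where 22.7% of all genes were.

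Of the 12 listed genes that respond to Toll, 5 were measured, and only Drs and Mtk, both antimicrobial peptide genes, were above background. Drs, which encodes the antifungal peptide drosomycin, read 6.52 and 7.04 in untreated, 6.29 and 6.82 in mock and 5.18 and 5.18 in NELF-depleted cells. It fell by 1.38 (SE 0.283, limma adjusted p = 0.0456) against mock and by 1.60 (adjusted p = 0.0188) against untreated cells. The call against mock was lost without any single array (limma adjusted p from 0.0778 without untreated replicate 1 to 0.338 without mock replicate 2), and that against untreated cells without any single untreated or NELF-depleted array (0.0737 to 0.287). With 50 intensity units added before taking logs, the values were -0.75 and -0.90 and neither was called (adjusted p = 0.168 and 0.0949). Mtk, the metchnikowin gene, was bright but had a value of -0.10 (adjusted p = 0.905). Of the 5, limma called 1 against mock, beside 1.35% of all genes called and 1.08% called lower. All 5 values against mock were negative, 3 of them for genes below background in every group. Their median of -1.32, beside 0.0122 over all genes, was the value of Def, which is among those 3. The 6 measured targets of Dorsal in the early embryo (twi, sna, zen, dpp, ths and tld) were below background in all 3 groups. Limma called 0 of them, and 1 had an unadjusted p under 0.05, where 11% of all genes did.

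**Figure D4:**
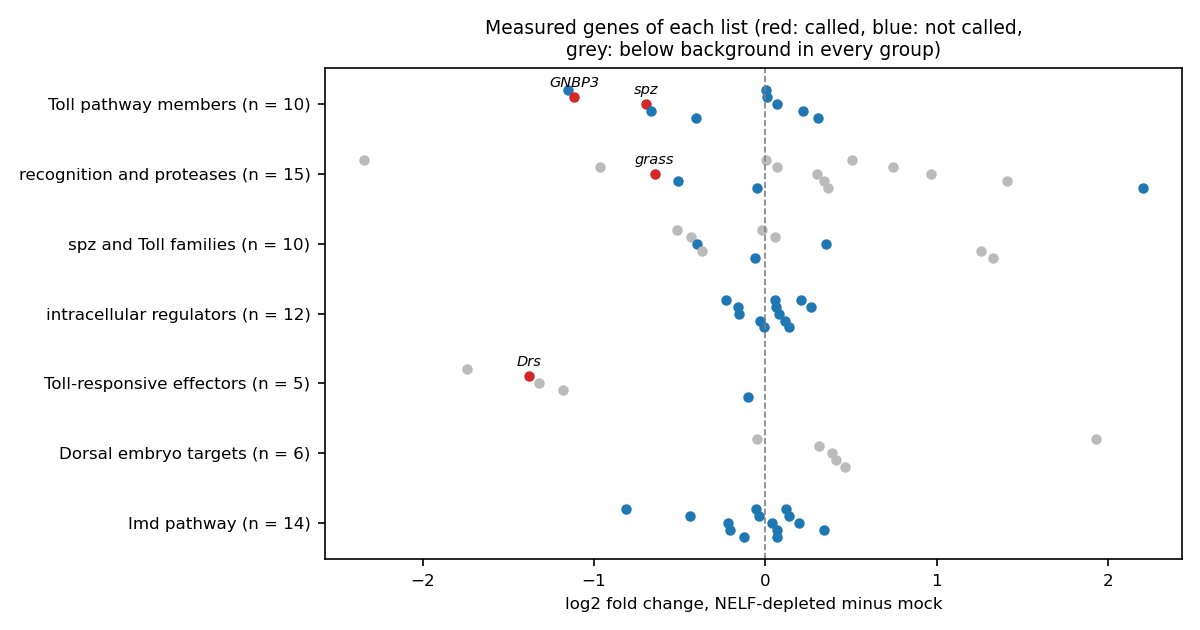
Log2 fold change in NELF-depleted minus mock cells (horizontal axis) of the measured genes in the Toll pathway and the related lists, 1 point per gene. Red points are called (GNBP3, spz, grass and Drs), blue points are not called and grey points are below background in every group; vertical spread within a list carries no value.

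The Imd pathway, the other NF-κB route of fly immunity, served as the nearest comparison. Of its 14 measured genes, all above background, limma called 0 in NELF-depleted against mock cells with either prior. With the intensity-dependent prior 3 had an unadjusted p under 0.05, where 11% of all genes did. On both NELF-depleted arrays 3 of the 14 lay below all 4 controls and 3 above them, beside 11% and 11.1% of all genes. The median change was 0.000804, from -0.82 for pirk, a negative regulator (adjusted p = 0.212), to 0.34 for imd, the adaptor (adjusted p = 0.496). Diap2, a ubiquitin ligase gene of the pathway, had a value of 0.19 (adjusted p = 0.440). Rel, which encodes the NF-κB factor Relish, had a value of -0.44 (SE 0.118, adjusted p = 0.143), close to that of dl. A difference between the Toll and Imd genes was not tested.

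How far the lower values of GNBP3, SPE, spz, Tl and dl depend on the processing can be read from the plot of settings. In all 18 other settings these 5 stayed negative against mock, and the call of spz held in 14 of them and that of GNBP3 in 8. Part of the agreement in sign was fixed beforehand. Settings that change only the prior, the filter or the block keep the fitted change. Leaving out an array could not turn the sign, since both NELF-depleted arrays lay below every control array. Scalings, offsets and the median over probe sets could have turned it. With the deposited intensities unscaled, spz was at -0.73 and GNBP3 at -1.22, and with arrays centred on their medians at -0.60 and -1.09, none called (limma adjusted p = 0.487 and 0.183, then 0.365 and 0.138). Under hybridization-control scaling, which moved the median of all genes to -0.42 and called 22.7% of them, 8 of the 10 members were called lower. Relative to that median spz was at -0.66, GNBP3 at -1.15, Tl at -0.68 and dl at -0.41, while pll was at 0.014 and cact at 0.0083. Myd88 and Dif were the members not called under that scaling.

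**Figure D5:**
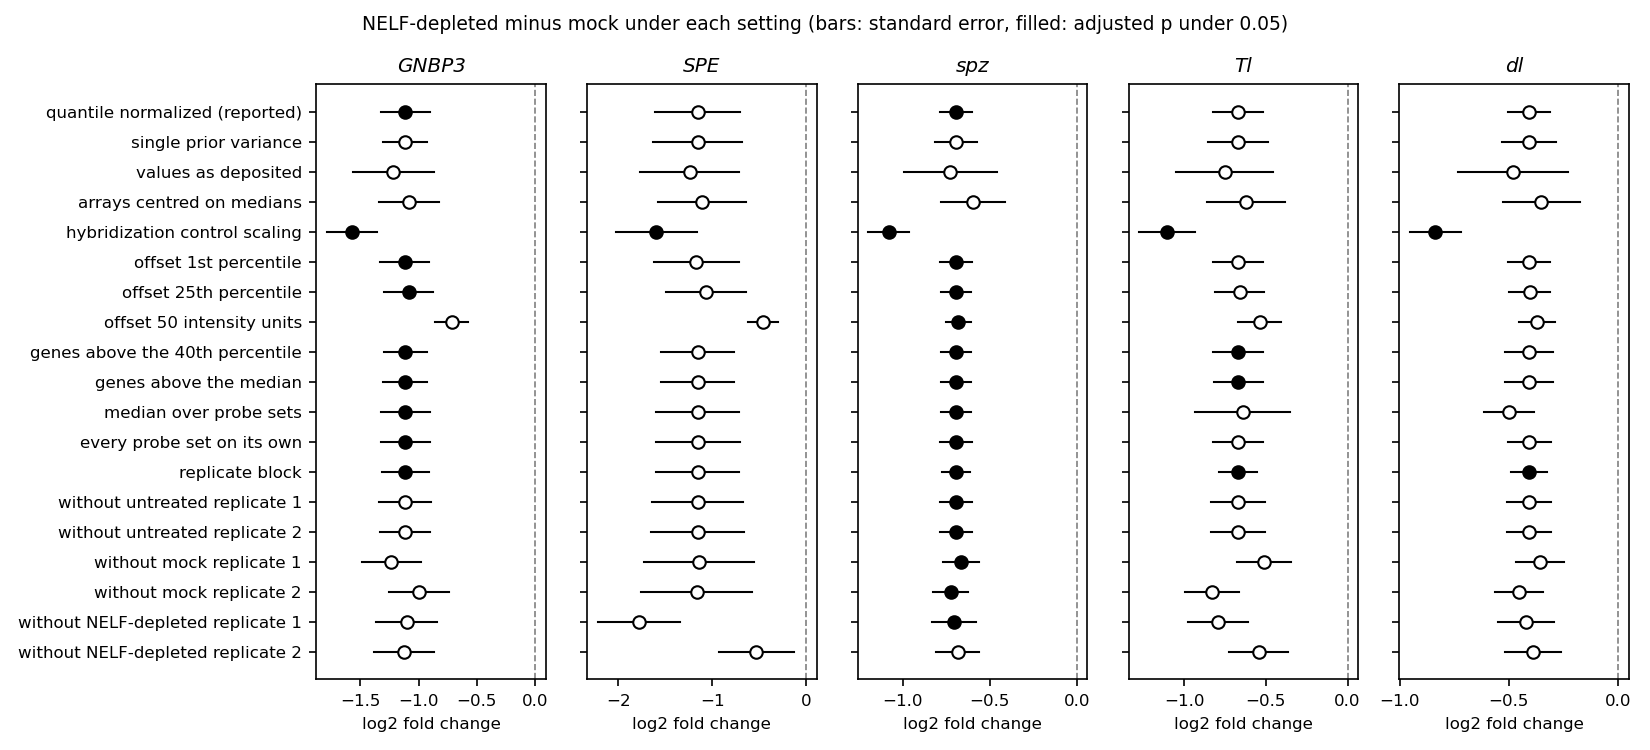
Log2 fold change in NELF-depleted minus mock cells (horizontal axes; scales differ between panels) of GNBP3, SPE, spz, Tl and dl under the reported setting and 18 others. Points are fitted changes, bars standard errors and filled points an adjusted p under 0.05. All points lie below 0, and spz is filled more often than the other 4. Settings that change only the prior, the filter or the block keep the fitted change.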

How the data were processed

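For each of 6 arrays the authors deposited a linear intensity per probe set. According to the series design text, scanning used GeneChip Operating Software 1.2.0.037 or Command Console 1.1, and the data passed through Rosetta Resolver 6.0. The sources used here do not say how probes were summarised, scaled or background-corrected. The medians of the arrays differed by 0.257 on the log2 scale, so log2(intensity + 0.819, the 5th percentile) was quantile normalized over all probe sets; the offset understates changes of dim genes. The 183 control probe sets and probe sets without exactly 1 annotated gene were left out, and the probe set of highest mean stood for its gene. Of the 10 chosen for the members, 4 had the suffix _s_at (Tl, cact, dl, Dif) and 1 _a_at (spz), marking probes that match several transcripts. Background was the 95th percentile of 17 tag controls. Current symbols came from RefSeq gene identifiers, matched for 11894 genes; no genome build is named, so no positions are given.

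Limma 3.58.1 in R 4.3.3 fitted 3 group means over 6 arrays (3 residual and 7.31 prior degrees of freedom), with Benjamini-Hochberg adjustment over all genes. The scripts were tested on simulated data. The members, lists and the intensity-dependent prior were chosen with earlier results of these data known. Named genes were all members and, per list, up to 4 genes above background in any group by smallest p. For spz, the 3 genes of most similar profile were added. Alternatives were other scalings, offsets, filters on dim genes, probe set rules and priors, the replicate number as a block, and leaving out each array. The number of arrays limits precision.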

Additional observations from a re-analysis of the deposited data

How the results depend on the processing

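Counts of Toll pathway members called in NELF-depleted cells were 2 against mock, 3 against untreated and 4 against both controls (1.35%, 1.41% and 2.06% of all genes). They were 0, 0 and 0 with a single prior variance, with 0% of all genes called. With values as deposited they were 0, 2 (Tl and GNBP3) and 2, where 0.451%, 1.57% and 1.44% of all genes were called. Arrays centred on medians gave 0, 1 and 1 (0.451%, 1.05% and 1.19% of all genes). Hybridization-control scaling gave 8, 7 and 8, and called 22.7%, 17.7% and 28% of all genes. An offset of 50 gave 1, 1 and 1 (0.618%, 0.743% and 1.29% of all genes). With the replicate number as a block, 4 members were called against mock (spz, GNBP3, Tl and dl), and 2 Imd genes (Rel and pirk), with 2.26% of all genes. Deviations of same-numbered arrays correlated at 0.145 to 0.158 between groups over 6533 genes; the labels do not say what the numbers mark, so the block was no part of the reported test. Without 1 array the counts ran from 0 to 1 against mock, 0 to 2 against untreated and 0 to 3 against both controls. Mock against untreated stayed at 0 in all settings. Of the related lists, upstream genes (1 called against mock) went to 0 against mock with the single prior, as deposited and with median centring. Toll-responsive genes (1 called against mock) did so in the same settings. Against untreated cells, grass and Drs kept their limma calls as deposited (adjusted p = 0.00371 and 0.00264) and with median centring (0.00752 and 0.0124). Both lost them with the single prior. Under hybridization-control scaling 3 upstream and 2 Toll-responsive genes were called against mock. That scaling also called 1 gene of the ligand and receptor families, 3 regulators and 8 Imd genes, from 0 each. With an offset of 50, grass and Drs lost their calls against mock, and Drs also with the 25th percentile (adjusted p = 0.0698). The cause of these differences was not tested.

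Among the members' values tried, signs turned in those that had passed no test as reported. As deposited, pll (-0.053) and cact (-0.059) did so against mock, Myd88 (-0.26) and cact (-0.33) against untreated, and SPE (-0.15) in mock against untreated. With median centring these were Myd88 (-0.025) and cact (-0.097) against untreated and SPE (-0.049) in mock against untreated. Under hybridization-control scaling they were Myd88 (-0.12), tub (-0.35), pll (-0.41), cact (-0.41) and Dif (-0.30) against mock, and Myd88 (-0.24) and cact (-0.31) against untreated. Relative to the median of all genes in the same setting, each of these values was above 0 (0.0083 to 0.30). Without 1 array, ranges against mock were -0.0070 to 0.14 for tub, -0.033 to 0.055 for pll and -0.048 to 0.052 for cact; against untreated they were -0.026 to 0.40 for Myd88 and -0.10 to 0.045 for tub; and SPE in mock against untreated ran from -0.0017 to 0.43. The spread of arrays limits such values: the median absolute difference within a group was 0.14 to 0.165 above background and 0.787 to 0.862 below it. The planned search for promoter motifs was not run.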
